A study of Mus musculus with 12 samples.

Results

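Transcription factors that set the fate of effector and helper T cells were examined in 12 mouse RNA samples, each measured on 1 Affymetrix whole-genome mouse array. The 10 genes are Eomes, Tbx21, Prdm1, Id2, Id3, Zeb2, Maf, Nfil3, Gata3 and Zbtb16. They were taken by name, and every probe set annotated with 1 of these symbols and no other was used, which gave 24 of the 45037 probe sets tested. Where genes are counted, the brightest probe set on average over the 12 arrays stands for each of the 18193 measured. Values are on the log2 scale of RMA, the authors' normalization, so a difference of 1 is a doubling.

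All cells were splenic T cells of female C57BL/6 mice, given in the labels as 8 to 12 weeks old, with no transgene or deletion. The 5 samples named NKT-like CD8+ here were CD8+ cells expanded with beads carrying anti-CD3 and anti-CD28 in high-dose IL-2, which the labels call expanded cells with suppression function. The 3 cultured CD4+ samples went through the same expansion after flow sorting, the 2 naive CD8+ samples were freshly isolated, and the 2 activated CD8+ samples had received low-dose soluble anti-CD3 and anti-CD28. The study's methods describe the starting CD8+ cells as enriched by negative selection and not fully pure. The comparison of cultured CD4+ with naive CD8+ samples has no naive CD4+ counterpart, so in it lineage and culture cannot be told apart.

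A T cell that leaves the naive state takes on a programme set by a small number of DNA-binding proteins. The T-box factors Eomes and T-bet (Tbx21) drive cytotoxic and interferon-gamma genes, while Gata3 and Maf drive type 2 cytokines and IL-10. Blimp-1 (Prdm1), Id2 and Zeb2 favour terminal effector cells, and Id3 is kept in naive and memory precursors. Nfil3 (E4BP4) is needed for NK cell development, and Zbtb16 (PLZF) is the factor of innate-like NKT cells that recognise lipids on CD1d.

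The lineage markers matched the labels. Cd8b1 ranged from 10.60 to 12.09 in NKT-like cultures and from 6.50 to 7.11 in cultured CD4+ samples, whereas Cd4 was at 9.82 to 10.10 in cultured CD4+ samples and at 6.55 to 7.20 in all others. Naive arrays also carried RNA of other cells. The mean of 7 B cell markers was 6.94 and 7.28 in the naive arrays, 6.37 to 6.47 in activated, 6.07 to 6.15 in NKT-like and 6.01 to 6.19 in cultured CD4+ arrays. For 4 plasma cell markers it was 8.65 in both naive arrays against 5.29 to 6.40 elsewhere, and for 6 markers of red cell precursors 8.18 to 8.58 against 6.09 to 6.39. The mean of 8 myeloid markers was 6.66 to 6.94 in NKT-like, 6.49 to 6.77 in naive, 6.13 to 6.57 in activated and 6.05 to 6.33 in cultured CD4+ arrays. Within that list Fcer1g, which NK cells also express, was at 9.88 to 11.80 in NKT-like cultures and at most at 7.44 elsewhere, while Lyz2 and S100a8 were lower in NKT-like than naive cells and the median difference over the list was -0.37 on the log2 scale. The mean of 4 NK cell markers was 7.02 to 8.14 in NKT-like, 7.54 to 7.58 in naive, 6.31 to 6.33 in activated and 5.65 to 5.79 in cultured CD4+ arrays. In bulk RNA, fewer cells of a type and less RNA per cell cannot be told apart.

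Most of these factors differed past the threshold between each expanded lineage and naive CD8+ cells, and none did between activated and naive CD8+ cells. A gene passed at a Storey q of at most 0.01 in a limma fit of all 12 arrays. In NKT-like against naive CD8+ cells 6 of the 10 factors passed, 5 of them higher (Eomes, Prdm1, Id2, Maf and Nfil3) and 1 lower (Id3). Of all genes 17.8% passed there, 11% higher and 6.73% lower. In cultured CD4+ against naive CD8+ cells 8 passed, 6 higher (Tbx21, Prdm1, Id2, Maf, Nfil3 and Gata3) and 2 lower (Eomes and Id3). Of all genes 17.4% passed there, 11.8% higher and 5.61% lower. In activated against naive CD8+ cells 0 of 10 passed, where 7.25% of all genes did (4.5% higher and 2.75% lower), and 4 (Tbx21, Id3, Nfil3 and Gata3) had an unadjusted limma p under 0.05.

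The direct comparison of the 2 expanded lineages left 2 factors past the threshold. NKT-like cells had more Eomes and less Gata3 than cultured CD4+ cells, in a comparison where 3.07% of all genes passed, 1.24% higher and 1.83% lower. Against activated CD8+ cells, 5 factors passed in NKT-like cells (Eomes, Prdm1, Id2 and Gata3 higher, Id3 lower), where 4.33% of all genes passed, 3.36% higher and 0.967% lower. In cultured CD4+ cells 6 passed against activated CD8+ cells (Prdm1, Id2, Maf and Gata3 higher, Eomes and Id3 lower), where 1.84% of all genes passed, 1.52% higher and 0.324% lower. The comparisons share samples and are not independent of each other.

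**Figure D1:**
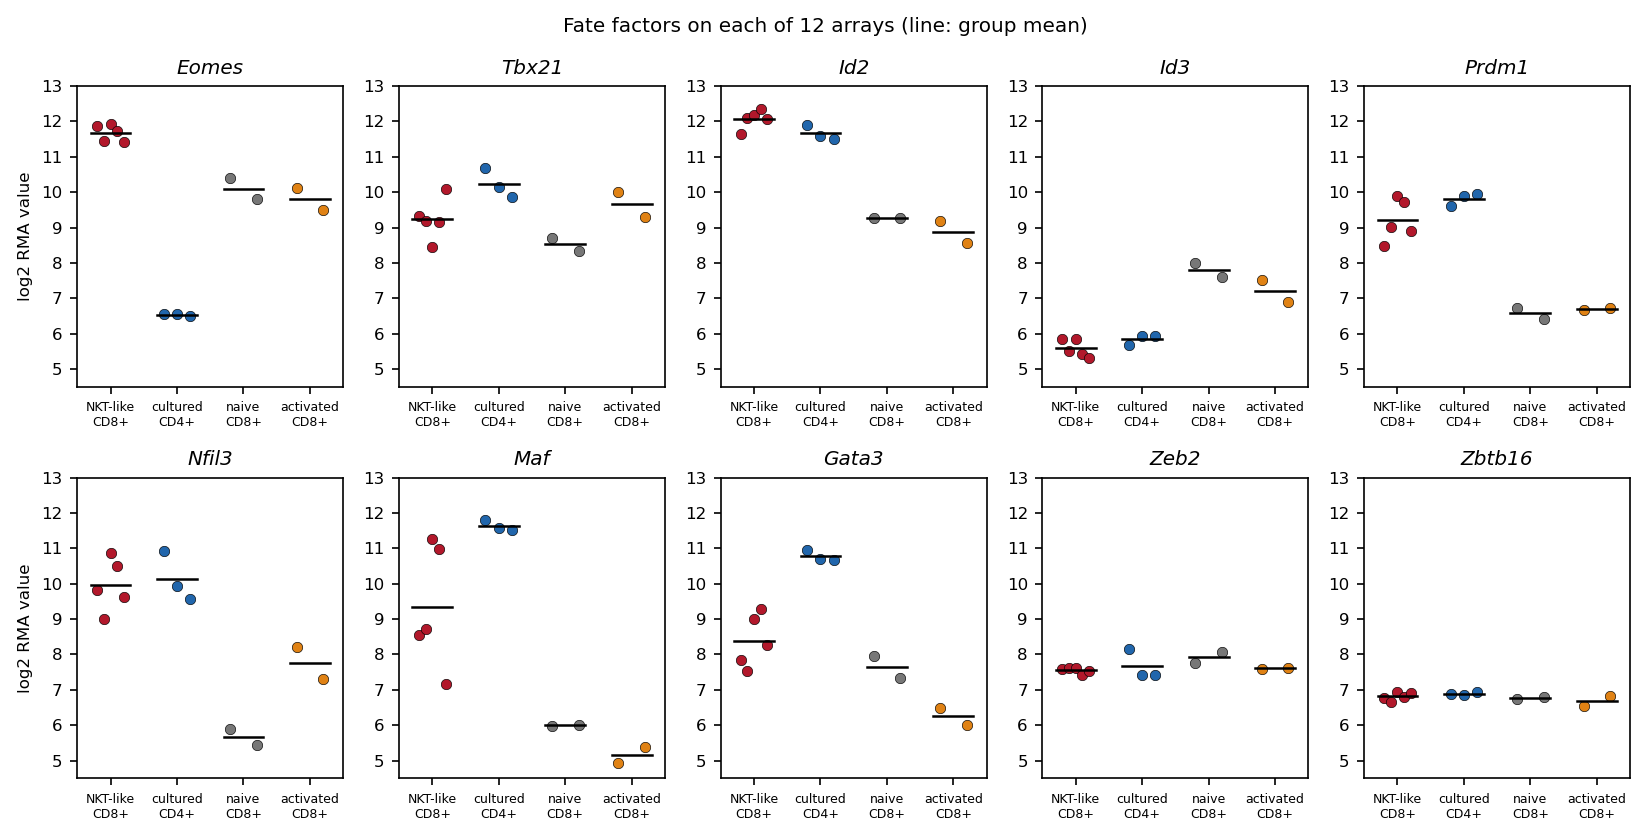
Log2 RMA value (vertical axis) of the representative probe set of each factor on each of 12 arrays, by group on the horizontal axis; each point is an array and each line a group mean. Eomes is lowest in the 3 cultured CD4+ samples (6.50 to 6.56), Id2 is high and Id3 low in both expanded lineages, and Maf spreads widely among the 5 NKT-like cultures (7.16 to 11.27).

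Eomes showed the clearest separation of the expanded lineages. It was at 11.86, 11.46, 11.92, 11.74 and 11.41 in the 5 NKT-like cultures and at 6.56, 6.56 and 6.50 in the 3 cultured CD4+ samples. The naive samples had 10.39 and 9.82, and the activated samples 10.13 and 9.49. No NKT-like culture overlapped any other group, while naive and activated samples overlapped each other. Eomes RNA in NKT-like cells exceeded that of naive samples 2.97-fold (q = 0.00019), of activated samples 3.65-fold (q = 0.00028) and of cultured CD4+ samples 35.2-fold (q = 8.9e-08). With array weights the call against activated samples missed the threshold (log2 difference 1.86, q = 0.012). Cultured CD4+ cells were 11.8-fold below naive CD8+ cells (q = 1.4e-06) and 9.63-fold below activated CD8+ cells (q = 1.8e-05). The cultured CD4+ values lay within the array means of 14 genes of other organs in that group (6.47 to 6.77). Single genes of that list read 3.79 to 9.40 there, so the means are a rough guide to background. By this guide the cultured CD4+ values cannot be told from background, and the size of the folds against them is uncertain. Activated and naive cells, neighbours in the order of levels, differed by -0.30 on the log2 scale (95% interval -0.84 to 0.25, q = 0.33).

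The second Eomes probe set, 1426001_at, passed in the same 5 comparisons and in the same directions. It gave 10.28 to 11.28 in NKT-like cultures, 6.07 to 6.54 in cultured CD4+, 9.19 and 8.59 in naive and 8.74 and 7.77 in activated samples. On this probe set NKT-like cells were 3.97-fold above naive, 6.16-fold above activated and 24.5-fold above cultured CD4+ cells.

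Tbx21, the other T-box factor, did not follow Eomes. Its values were 9.34, 9.19, 8.44, 9.17 and 10.10 in NKT-like cultures and 10.69, 10.16 and 9.86 in cultured CD4+ samples. Naive samples had 8.72 and 8.34, and activated samples 10.01 and 9.30. NKT-like cultures overlapped each of the other groups. Only cultured CD4+ against naive CD8+ cells passed among the 6 comparisons, with Tbx21 3.26-fold higher (q = 0.0052). That call was lost when any 1 cultured CD4+ or naive array was left out (q up to 0.069) and after quantile normalization or cyclic loess (log2 difference 1.30 in both, q = 0.021 and 0.024). Benjamini-Hochberg adjustment did not keep it either (adjusted p = 0.013). The difference of NKT-like minus cultured CD4+ cells was -0.99 on the log2 scale (95% interval -1.70 to -0.28, q = 0.12), and that of NKT-like minus naive cells 0.72 (interval -0.10 to 1.53, q = 0.074).

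The promoter windows of this T-box pair are shown because the genes encode related proteins and had different levels in the expanded lineages. The sequences are the 250 bases before the transcription start in RefSeq on GRCm38.p6, 5' to 3' on the gene's strand, and capitals mark the E-box CANNTG, the site bound by E proteins. Eomes lies at chr9:118477939-118478188 on the plus strand and Tbx21 at chr11:97115332-97115581 on the minus strand.
Eomes: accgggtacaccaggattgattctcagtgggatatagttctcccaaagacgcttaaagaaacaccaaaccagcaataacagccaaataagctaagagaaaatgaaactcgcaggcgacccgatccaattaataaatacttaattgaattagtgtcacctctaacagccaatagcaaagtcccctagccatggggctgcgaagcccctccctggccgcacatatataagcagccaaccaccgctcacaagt
Tbx21: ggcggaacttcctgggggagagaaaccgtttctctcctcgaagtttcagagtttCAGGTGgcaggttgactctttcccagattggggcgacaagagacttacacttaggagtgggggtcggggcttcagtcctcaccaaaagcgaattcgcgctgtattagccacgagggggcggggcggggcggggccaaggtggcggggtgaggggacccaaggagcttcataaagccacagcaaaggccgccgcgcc
The Eomes window is 46.4% G and C and holds 0 E-boxes, and the Tbx21 window is 60.8% G and C and holds 1. An E-box on either strand occurs in 66.2% of the 32851 promoter windows of this length. The T-box core GGTGTGA, searched on both strands, occurs in 3.33% of all windows and in neither of these.

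NKT-like cells exceeded naive cells in most of a list of 15 genes linked to T-box factors. The list was chosen with earlier results of these data known, so its counts describe it and are no test. Against naive cells 10 of the 15 were higher and 1 lower, with a list median of 2.54 on the log2 scale beside -0.05 for all genes. Of all genes 11% were higher and 6.73% lower there. Gzmb, a granzyme that triggers death of the target cell, was at 14.32 to 14.38 in the 5 NKT-like cultures and at 8.10 and 7.17 in naive samples, a 105-fold difference (q = 1.4e-07). Gzma, at 14.37 to 14.55 in NKT-like cultures, rose 61.5-fold (q = 2.2e-05) and Ifng, the type 1 cytokine, 51.2-fold (q = 0.0048). The highest value in the whole table is 14.55, so Gzmb and Gzma lay at the top of the scale in NKT-like cultures and the size of their folds there is uncertain. The naive Ifng mean, 4.35, lay below the array means of 14 genes of other organs there (6.62 to 6.70), so its folds against naive cells are uncertain too. Cx3cr1, a chemokine receptor of effector cells, was the member lower than in naive cells, by 1.53-fold (q = 0.0053). In cultured CD4+ against naive cells 5 were higher and 2 lower, with a median of 0.22, where 11.8% and 5.61% of all genes were. Gzmb (60.2-fold), Ifng (50.3-fold) and Il12rb2, a subunit of the IL-12 receptor (18.2-fold), led the 5. Gzmm and Cx3cr1 were lower, by 1.91-fold and 1.67-fold.

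Directly between the expanded lineages, 3 of the 15 were higher in NKT-like cells and 1 lower, where 1.24% and 1.83% of all genes were. Gzmk was at 11.59 to 12.72 in NKT-like cultures and at 6.53 to 6.70 in cultured CD4+ samples, a 46.3-fold difference (q = 8.3e-07). The cultured CD4+ values lay within the array means of 14 genes of other organs there (6.47 to 6.77), so the size of that fold is uncertain. Prf1, which encodes the pore-forming protein perforin, was 28.0-fold higher (q = 9.6e-05) and Klrg1, an inhibitory receptor of effector cells, 4.64-fold (q = 0.0033). Il12rb2 was 3.13-fold lower (q = 0.0015). Ifng differed by 0.02 on the log2 scale (q = 0.87), and its values were scattered in both lineages. NKT-like cultures had 8.43, 11.51, 10.54, 7.85 and 11.80, and cultured CD4+ samples 6.84, 11.65 and 11.52. Cultured CD4+ replicate 1, the low one for Ifng, had the highest Tbx21 value of its group.

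Against activated cells 5 of the 15 were higher in NKT-like cells and 0 lower, led by Gzma (161-fold, q = 2.3e-05), Gzmk (39.2-fold, q = 5.3e-06) and Prf1 (17.2-fold, q = 0.00059). Cultured CD4+ against activated cells gave 3 higher and 0 lower: Gzma (44.6-fold), Ccl5 (10.5-fold) and Il12rb2 (2.96-fold). Of all genes 3.36% were higher and 0.967% lower in NKT-like, and 1.52% and 0.324% in cultured CD4+ against activated cells. In activated against naive cells 3 were higher and 2 lower, where 4.5% and 2.75% of all genes were. Ifng was 259-fold higher (q = 0.0059), Gzmb 85.6-fold (q = 2.8e-06) and Il12rb2 6.17-fold (q = 0.0004), while Ccl5, a chemokine of memory and effector cells, was 13.6-fold lower (q = 0.0014) and Cx3cr1 1.78-fold lower (q = 0.0077).

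**Figure D2:**
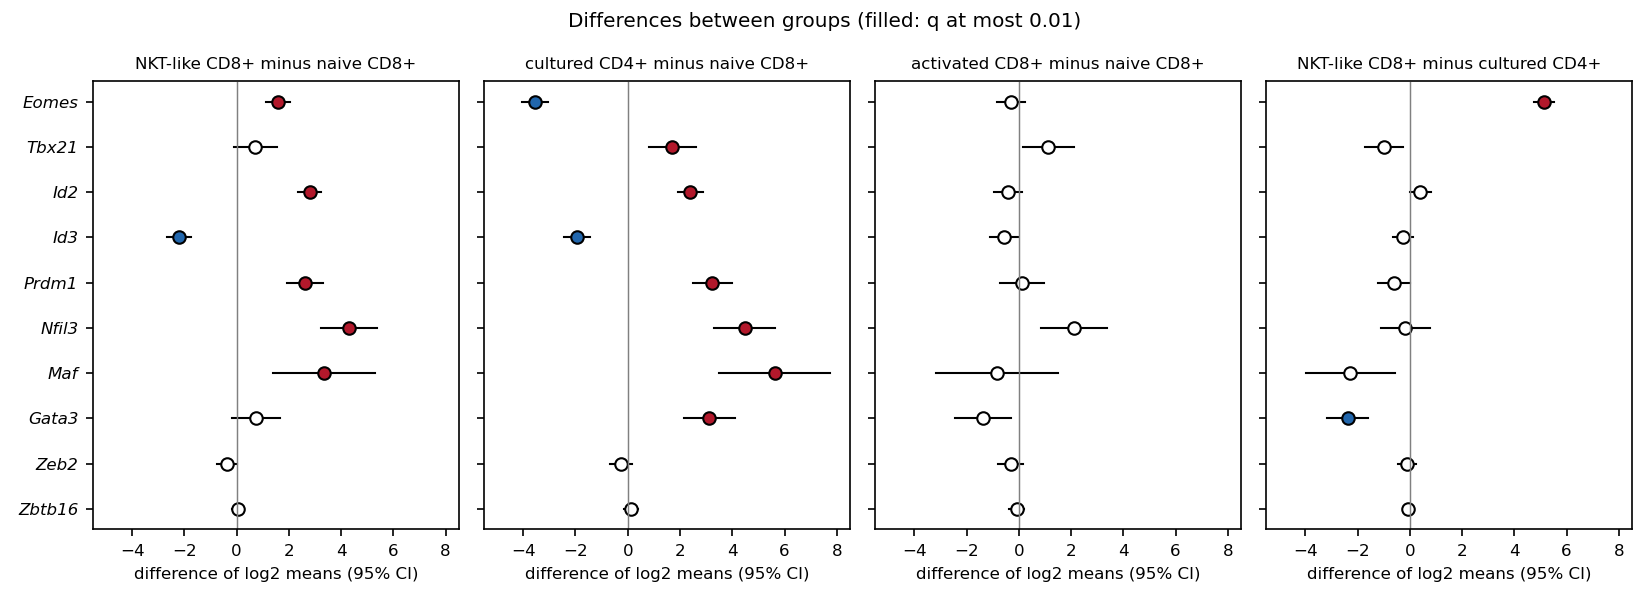
Differences of log2 means (horizontal axis, with 95% confidence intervals of the limma fit) for the 10 factors in 4 comparisons; filled points passed q of at most 0.01, red higher and blue lower. The panel of activated minus naive cells has no filled point, and Eomes and Gata3 are the filled points of NKT-like minus cultured CD4+ cells.

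Id2 was higher and Id3 lower in both expanded lineages than in naive CD8+ cells. Id proteins lack a DNA-binding region and hold E proteins away from the E-box. Id2 was at 11.64, 12.10, 12.17, 12.36 and 12.06 in NKT-like cultures and at 11.89, 11.60 and 11.50 in cultured CD4+ samples. Naive samples had 9.27 and 9.28, and activated samples 9.18 and 8.56. The expanded lineages overlapped each other and lay above all fresh and activated samples. Relative to naive samples, Id2 was 6.94-fold higher in the NKT-like group (q = 3.5e-06) and 5.25-fold higher in the cultured CD4+ group (q = 2.1e-05). Relative to activated samples the folds were 9.18 (q = 6.7e-06) and 6.94 (q = 4.6e-05). The NKT-like and CD4+ lineages differed by 0.40 on the log2 scale (95% interval 0.02 to 0.79, q = 0.26).

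The other Id2 probe sets set the lineages further apart, but without passing. On 1422537_a_at the log2 difference from naive cells was 3.70 in the NKT-like group and 2.82 in the cultured CD4+ group, and the difference between the lineages was 0.88 (q = 0.11). Probe set 1453596_at read 8.04 to 9.94 in NKT-like cultures, 7.43 to 7.88 in cultured CD4+, 6.86 and 6.91 in naive and 5.98 and 6.07 in activated samples. On it NKT-like cells passed against naive (4.53-fold, q = 0.00079) and activated cells (8.22-fold, q = 0.00045). Cultured CD4+ cells did not pass on it, with a log2 difference from naive cells of 0.75 (q = 0.08) and from activated cells of 1.61 (q = 0.038).

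Id3 was at 5.85, 5.50, 5.86, 5.42 and 5.33 in NKT-like cultures and at 5.68, 5.94 and 5.94 in cultured CD4+ samples. Naive samples had 7.99 and 7.60, and activated samples 7.53 and 6.90. All 8 expanded samples lay below all 4 others. The expanded values also lay below the array means of 14 genes of other organs (6.35 to 6.77 in these groups). They cannot be told from background, so the size of the folds is uncertain. The log2 difference of NKT-like cells was -2.20 from naive (q = 2.1e-05) and -1.62 from activated cells (q = 0.00063), the second of which did not pass with array weights (q = 0.023). Cultured CD4+ cells were 3.84-fold below naive (q = 8.8e-05) and 2.57-fold below activated cells (q = 0.0053). The call for cultured CD4+ against activated cells was lost without any 1 cultured CD4+ array or without activated replicate 1 (q from 0.014 to 0.022), and also with cyclic loess (q = 0.017), median centring (q = 0.014) or array weights (q = 0.085). Activated minus naive cells gave -0.58 (interval -1.12 to -0.04, q = 0.11). B cells also express Id3, and the B cell marker Ms4a1 (CD20) was at 8.77 and 8.17 in naive, 6.53 and 7.12 in activated, 5.83 to 6.08 in NKT-like and 5.83 to 6.36 in cultured CD4+ samples. Of the 7 B cell markers 5 were lower in NKT-like and 4 in cultured CD4+ than in naive cells. Of all genes 6.73% and 5.61% were lower in these comparisons. The part of B cell RNA in the Id3 result was not tested.

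The windows of the Id pair are shown in the same way because the genes differed from naive cells in opposite directions. Id2 lies at chr12:25096093-25096342 on the minus strand and Id3 at chr4:136143572-136143821 on the plus strand (GRCm38.p6, 250 bases before the start, E-box in capitals).
Id2: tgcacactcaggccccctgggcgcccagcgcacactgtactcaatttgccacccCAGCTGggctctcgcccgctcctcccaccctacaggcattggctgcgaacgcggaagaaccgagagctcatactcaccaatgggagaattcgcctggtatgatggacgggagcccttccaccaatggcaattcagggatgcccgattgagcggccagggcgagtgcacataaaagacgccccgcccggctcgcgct
Id3: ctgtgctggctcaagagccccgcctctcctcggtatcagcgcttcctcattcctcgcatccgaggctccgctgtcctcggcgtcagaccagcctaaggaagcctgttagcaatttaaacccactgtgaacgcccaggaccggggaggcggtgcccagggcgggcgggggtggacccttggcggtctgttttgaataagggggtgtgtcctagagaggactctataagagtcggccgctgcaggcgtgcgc
Both windows are 62.8% G and C. The Id2 window holds 1 E-box and the Id3 window 0. The box CCAAT, searched on both strands, occurs 3 times in the Id2 window, 0 times in the Id3 window and in 33.8% of all 32851 windows. Of the 10 factors, 8 have promoter entries in the table used here, Maf and Zbtb16 being the ones without.

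Of the E proteins, the partners of Id proteins, Tcf12 (HEB) was lower in both expanded lineages than in naive cells. The difference was 1.96-fold for the NKT-like group (q = 0.0047) and 2.72-fold for the cultured CD4+ group (q = 0.00096). In activated cells it was 2.16-fold below naive without passing (q = 0.015). The E proteins Tcf3 and Tcf4 and the Id family genes Id1 and Id4 passed in none of the 6 comparisons. Id1 stayed between 5.25 and 5.69 on all 12 arrays.

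Prdm1 and Nfil3 were high in both expanded lineages. Prdm1 was at 8.49, 9.002, 9.89, 9.72 and 8.91 in NKT-like cultures and at 9.62, 9.89 and 9.94 in cultured CD4+ samples. Naive samples had 6.72 and 6.43, and activated samples 6.68 and 6.72. All expanded samples lay above all others. Against activated cells, Prdm1 was 5.68-fold higher in NKT-like (q = 0.00063) and 8.69-fold higher in cultured CD4+ cells (q = 5e-04). The naive and activated values lay near the array means of 14 genes of other organs (6.46 to 6.70 in these groups). The size of folds against them is uncertain. The NKT-like call was lost without activated replicate 2 (q = 0.012), and with array weights neither call passed (q = 0.061 and 0.025). Activated and naive cells differed by 0.12 (interval -0.71 to 0.95, q = 0.56), and NKT-like minus cultured CD4+ cells by -0.61 (interval -1.22 to -0.01, q = 0.28). Plasma cells are rich in Prdm1. Their marker Jchain, which joins antibody units, was at 12.95 and 12.90 in the naive samples and at 4.52 to 6.94 elsewhere. Pou2af1 was at 8.23 and 8.07 in the naive samples and at most at 6.80 elsewhere. Sdc1 (7.39 and 7.63 against 6.86 to 7.37) and Tnfrsf17 (6.04 and 6.02 against 5.45 to 5.88) differed less. The part of plasma cell RNA in the Prdm1 values was not tested.

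Nfil3 was at 9.82, 9.01, 10.87, 10.51 and 9.63 in NKT-like cultures and at 10.91, 9.94 and 9.58 in cultured CD4+ samples. Naive samples had 5.88 and 5.44, and activated samples lay between at 8.22 and 7.32. The expanded lineages overlapped each other and no other group. Relative to naive samples, Nfil3 was 19.7-fold higher in the NKT-like group (q = 7.1e-05) and 22.3-fold higher in the cultured CD4+ group (q = 0.00011). The naive values lay below the array means of 14 genes of other organs there (6.62 to 6.70), so the size of folds against them is uncertain. The steps from naive to activated and from activated to expanded samples missed the threshold. Activated cells were 4.30-fold above naive (q = 0.025), NKT-like cells 4.59-fold above activated (q = 0.014) and cultured CD4+ cells 5.17-fold above activated (q = 0.025).

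Maf and Gata3, the helper cell factors, were highest in cultured CD4+ cells. Maf was at 11.79, 11.58 and 11.51 there and at 8.56, 8.72, 11.27, 10.98 and 7.16 in NKT-like cultures. Naive samples had 5.98 and 6.01, and activated samples 4.93 and 5.38. No groups overlapped. The NKT-like cultures spread over most of the range between the naive and the cultured CD4+ samples, with an SD of 1.74. The naive and activated values lay below the array means of 14 genes of other organs (6.46 to 6.70 in these groups) and cannot be told from background, so the size of the Maf folds against them is uncertain. Maf was 89.1-fold higher in cultured CD4+ than in activated cells (q = 0.0032), a call lost without cultured CD4+ replicate 2 or 3 or activated replicate 2 (q from 0.015 to 0.034) and with array weights (q = 0.1). NKT-like cells were 10.2-fold above naive cells (q = 0.0084), a call that neither Benjamini-Hochberg adjustment (adjusted p = 0.021), cyclic loess (q = 0.015), median centring (q = 0.011), array weights (q = 0.013) nor the mean of all Maf probe sets (q = 0.018) kept. It was also lost without any 1 of NKT-like replicates 1 to 4, of the cultured CD4+ or of the naive arrays (q from 0.01 to 0.094). NKT-like against activated cells missed the threshold at 18.2-fold (q = 0.011), as did NKT-like minus cultured CD4+ cells at -2.29 on the log2 scale (interval -3.99 to -0.59, q = 0.13).

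Of the 6 Maf probe sets, 5 put cultured CD4+ above naive cells past the threshold, by 3.57-fold to 49.6-fold, where 8.18% of all probe sets were higher. The representative one, at 49.6-fold, did not pass without naive replicate 2 (q = 0.015). All 6 read highest in replicates 3 and 4 among the NKT-like cultures. On 1447849_s_at these read 10.09 and 9.84, beside 6.88, 7.57 and 5.99 in the other NKT-like cultures and 10.70 to 11.19 in cultured CD4+ samples. Probe set 1447945_at, with less scatter, gave NKT-like cells 2.37-fold less than cultured CD4+ cells (q = 0.0069). The remaining probe set, 1444073_at, read 5.004 to 6.27 on all arrays and passed in none of the 6 comparisons.

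**Figure D3:**
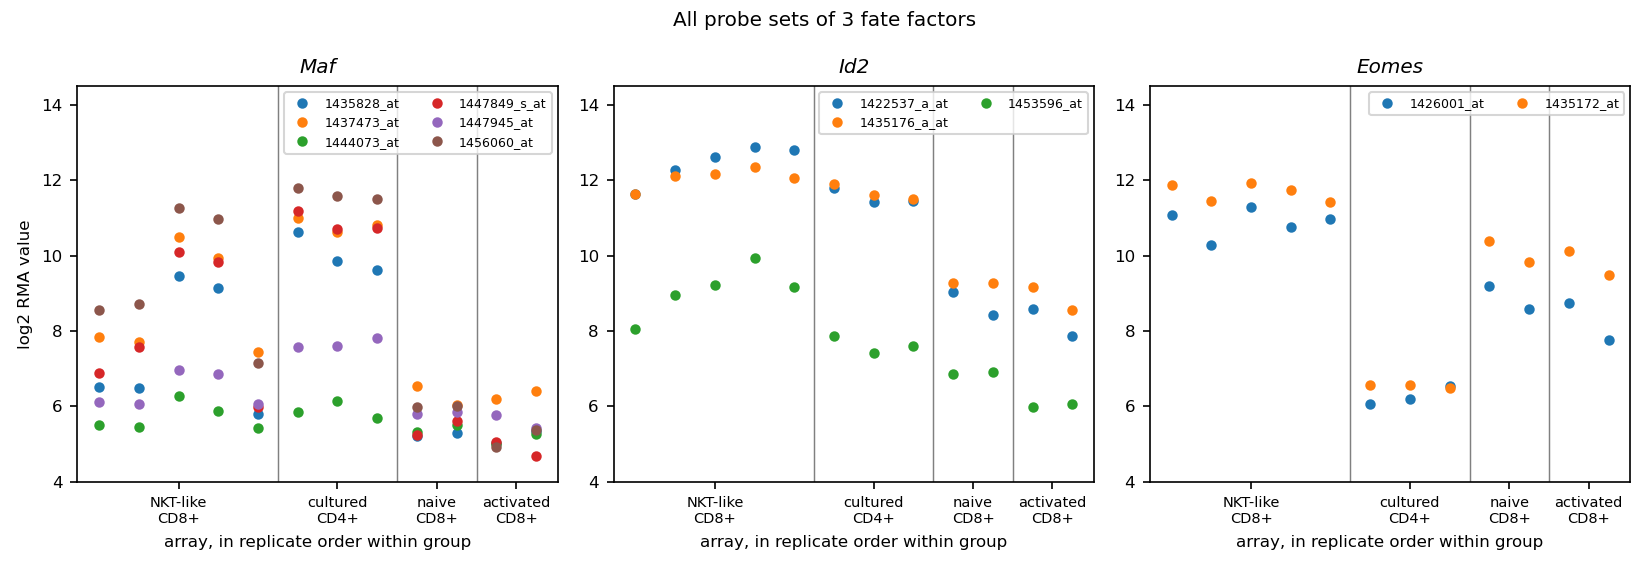
Log2 RMA value (vertical axis) of every probe set of Maf, Id2 and Eomes on each array, with arrays in replicate order within groups on the horizontal axis and 1 colour per probe set. The Maf probe sets are highest in NKT-like replicates 3 and 4 among the NKT-like cultures, and both Eomes probe sets are lowest in the cultured CD4+ samples.

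Gata3 was at 10.94, 10.69 and 10.68 in cultured CD4+ samples and at 7.83, 7.54, 8.996, 9.28 and 8.26 in NKT-like cultures. Naive samples had 7.95 and 7.33, and activated samples 6.50 and 6.01. Cultured CD4+ samples lay above all others and activated samples below all others, while NKT-like and naive samples overlapped. NKT-like cells were 5.24-fold below cultured CD4+ cells (q = 0.0025), a call lost without any 1 cultured CD4+ array (q from 0.011 to 0.016). Cultured CD4+ cells were 8.74-fold above naive (q = 0.00034) and 22.8-fold above activated cells (q = 0.00026). The activated values lay near or below the array means of 14 genes of other organs there (6.46 to 6.66). The size of folds against them is uncertain. NKT-like cells were 4.36-fold above activated cells (q = 0.0072), which was lost when any 1 of 8 arrays was left out (NKT-like replicates 3 and 5, cultured CD4+ replicates 2 and 3, and the naive and activated arrays; q from 0.011 to 0.084). Benjamini-Hochberg adjustment (adjusted p = 0.011), median centring (q = 0.01, just over the threshold) and array weights (q = 0.25) did not keep it, and array weights also ended the call for cultured CD4+ against activated cells (q = 0.014). NKT-like minus naive cells gave 0.74 (interval -0.16 to 1.64, q = 0.087), and activated minus naive cells -1.39 (interval -2.46 to -0.31, q = 0.065).

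Type 2, IL-10 and helper genes linked to Gata3 and Maf were mostly higher in cultured CD4+ than in naive CD8+ cells. Of 13 measured, 11 were higher and 0 lower than in naive cells, with a list median of 2.69 on the log2 scale beside -0.05 for all genes. Of all genes 11.8% were higher and 5.61% lower there. The list includes Cd4, the marker of that lineage. It too was chosen with earlier results of these data known, so its counts are no test. Il10 was 123-fold (q = 0.00012), Il4 57.7-fold (q = 4.9e-07) and Il13 35.2-fold higher (q = 7.6e-05). The naive means of Il10 (5.205), Il4 (5.81) and Il13 (6.20) lay below the array means of 14 genes of other organs there (6.62 to 6.70). The size of folds against them is uncertain. In NKT-like against naive cells, where 11% of all genes were higher and 6.73% lower, 2 were higher and 0 lower, with a median of 0.12. These were Il10 (47.2-fold, q = 0.00026) and Icos, a co-stimulatory receptor (4.06-fold, q = 0.0013). In NKT-like against cultured CD4+ cells 0 were higher and 6 lower, with a median of -2.59, where 1.24% and 1.83% of all genes were. Il4 was at 5.35 to 6.10 in NKT-like cultures and at 10.93, 11.95 and 12.11 in cultured CD4+ samples, a 66.1-fold difference (q = 2.6e-07). Il21 was 47.0-fold (q = 5.5e-09) and Il13 29.5-fold lower (q = 0.00011) in NKT-like cells. The NKT-like means of Il4 (5.61), Il21 (4.97) and Il13 (6.455) lay within or below the array means of 14 genes of other organs there (6.35 to 6.51). The size of these folds is uncertain.

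Cultured CD4+ against activated cells gave 7 higher and 0 lower genes of this list, led by Il10 (58.0-fold), Il4 (57.8-fold) and Il13 (42.0-fold). NKT-like against activated cells gave 1 higher, Il10 (22.3-fold, q = 0.0039), and 1 lower, Il21 (1.99-fold, q = 0.0019). The activated means of Il10 (6.29), Il4 (5.81), Il13 (5.94) and Il21 (5.97) lay below the array means of 14 genes of other organs. So did the NKT-like mean of Il21 (4.97). Those array means were 6.35 to 6.66 in these groups, so the size of the folds is uncertain. In activated against naive cells Icos alone was higher (4.51-fold, q = 0.0064) and 0 were lower. Of all genes 1.52% were higher and 0.324% lower in cultured CD4+, and 3.36% and 0.967% in NKT-like against activated cells. For activated against naive cells the shares were 4.5% and 2.75%.

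**Figure D4:**
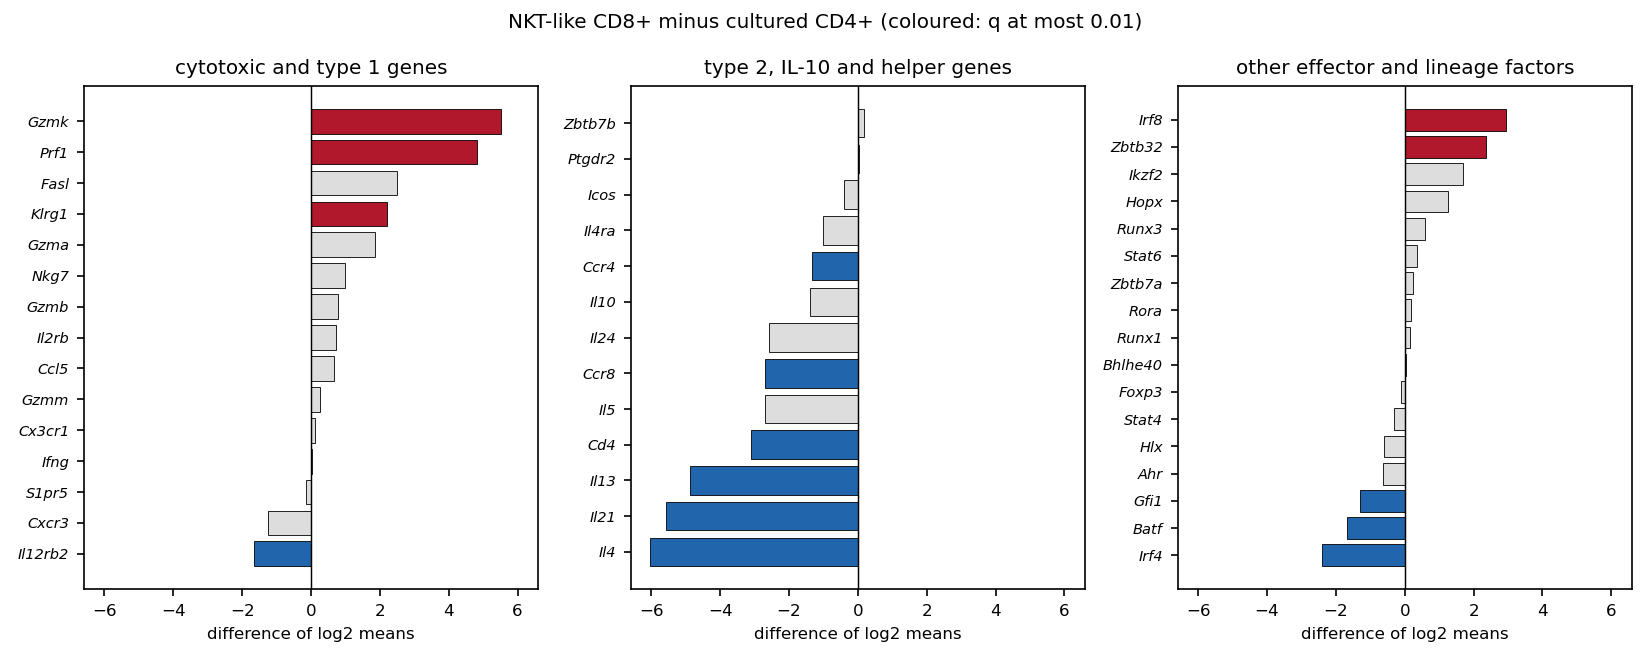
Differences of log2 means, NKT-like CD8+ minus cultured CD4+ cells (horizontal axis), for genes of 3 lists; coloured bars passed q of at most 0.01. Gzmk (46.3-fold higher) and Il4 (66.1-fold lower) are the ends of the first and second list. Both folds are uncertain in size, since the lower group read within or below the array means of genes of other organs.

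Zeb2 and Zbtb16 passed in none of the 6 comparisons on any of their 8 probe sets. The representative probe set of Zeb2, a repressor active in terminal effector cells, read 7.41 to 8.14 on the 12 arrays. NKT-like minus naive cells gave -0.37 (interval -0.77 to 0.02, q = 0.063). Its other 4 probe sets read 3.56 to 6.62. On 1 of these, 1422748_at, cultured CD4+ cells were 2.21-fold above naive cells without passing (q = 0.027).

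Zbtb16, which marks CD1d-restricted NKT cells, read 6.54 to 6.95 on all 12 arrays with its representative probe set. The difference of NKT-like minus naive cells was 0.06 (interval -0.18 to 0.30, q = 0.30), and that of NKT-like minus cultured CD4+ cells -0.06 (interval -0.27 to 0.15, q = 0.77). The other 2 probe sets read 3.54 to 5.73. The table used here carries no detection call, so a level near the lower end of the scale cannot be told from background.

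The 5 NKT-like cultures were not alike in these factors. The SD among them was 1.74 for Maf, 0.74 for Gata3, 0.74 for Nfil3, 0.59 for Tbx21 and 0.59 for Prdm1, all 5 above the 95th percentile of all 18193 genes (0.511, median 0.146). Eomes (0.23), Id2 (0.26) and Id3 (0.25) varied less on their representative probe sets, but the other Id2 probe sets had SDs of 0.513 and 0.682. For 5 factors (Prdm1, Id2, Maf, Nfil3 and Gata3) the 2 highest cultures were replicates 3 and 4 on the representative probe set, which holds for 11% of all genes. For Id2 it did not hold on 1422537_a_at, where replicates 4 (12.89) and 5 (12.79) were highest and replicate 3 read 12.62. Tbx21 had its lowest value in replicate 3 and its highest in replicate 5.

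The further genes given here were picked after their values were seen, so they add no support to the pattern of the factors. Il10 was at 12.33 and 12.21 in replicates 3 and 4 and at 8.86, 10.31 and 10.12 in replicates 1, 2 and 5. Il24, a cytokine of the IL-10 family, was at 11.86 and 11.11 in replicates 3 and 4 and at 7.88 to 8.17 in the others, while cultured CD4+ samples had 11.09 to 12.53. Ahr, a ligand-activated factor, was at 8.51 and 8.38 beside 6.73 to 7.22. The NK receptor gene Klrd1 was lower in replicates 3 and 4, at 10.21 and 10.07 beside 11.99 to 12.50. Cd4 in replicates 3 and 4 was 7.08 and 6.76, the highest and the lowest of the 5 cultures (6.79 to 7.02 in the others), and below the 9.82 to 10.10 of cultured CD4+ samples. Il4 was 6.10 and 5.80 in them, the highest of the NKT-like cultures, where the other three had 5.35 to 5.47, and 10.93 to 12.11 in cultured CD4+ samples. No grouping of these cultures by value was tested.

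**Figure D5:**
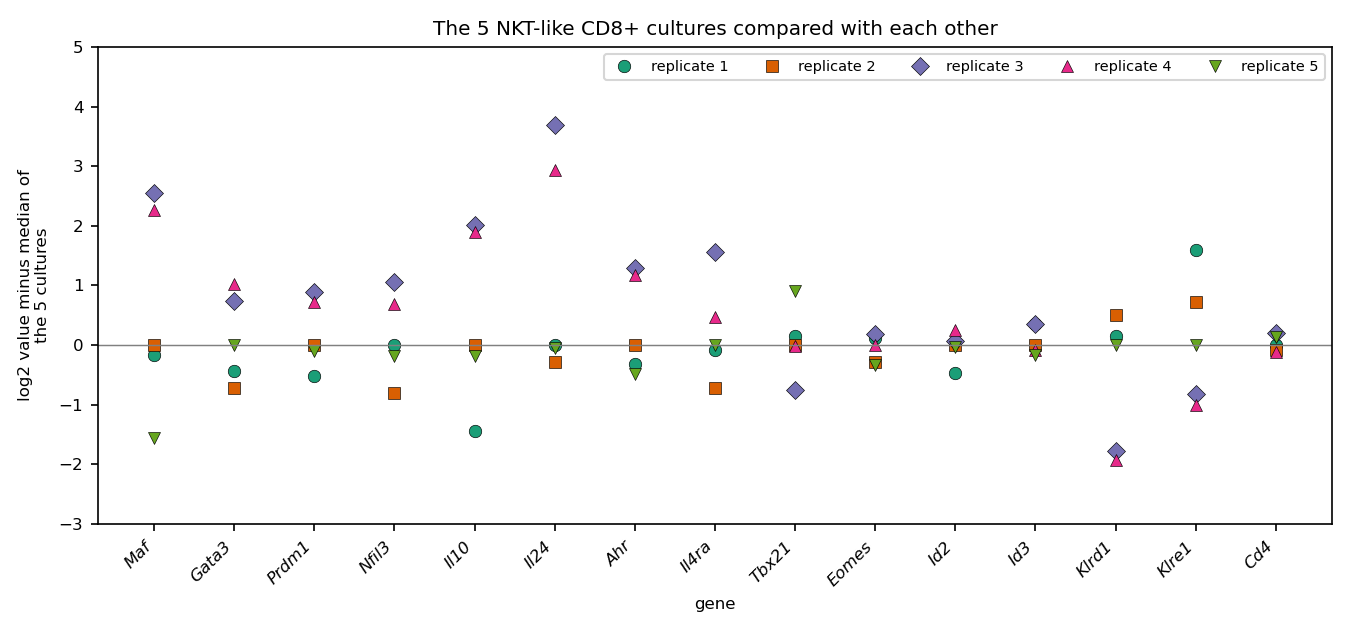
Log2 value minus the median of the 5 NKT-like CD8+ cultures (vertical axis) for 15 genes (horizontal axis), with 1 symbol per culture. Replicates 3 and 4 are the upper 2 for Maf, Gata3, Prdm1, Nfil3, Il10, Il24 and Ahr and the lower 2 for Klrd1 and Klre1.

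The genes with patterns most like each factor were found by the root mean square difference over the 12 arrays after each gene was centred on its mean. For Eomes these were Atp8b4 (0.531), Cd8b1 (0.893) and Cd8a (0.901), so both chains of CD8 were among the 3. For Maf they were Il24 (0.843), Epas1 (0.974) and Il10 (1.00), and for Gata3 Gsn (0.351), Akr1c13 (0.478) and Casp1 (0.546). Id2 was closest to Zmat3 (0.265), Ctla2a (0.302) and Vim (0.315), and Id3 to Cpm (0.290), Chst15 (0.321) and Slc14a1 (0.326). Prdm1 was closest to S100a13 (0.345), Glrx (0.449) and Pparg (0.479), and Nfil3 to Socs2 (0.498), the IL-12 receptor subunit Il12rb1 (0.564) and Capg (0.574). Tbx21, with the smallest SD over the arrays of these 8 factors (0.733), was closest to D17H6S56E-5 (0.292), Mtfr2 (0.304) and Plrg1 (0.312). A gene that varies less has smaller distances, so these values are not compared between factors.

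Several naive and memory fate factors, a list also chosen with earlier results known, were lower than in naive cells, as Id3 was. Of 11 measured, 7 fell and 0 rose from naive to NKT-like cells, with a list median of -1.34 on the log2 scale beside -0.05 for all genes. Of all genes 6.73% fell and 11% rose there. The shares were 5.61% and 11.8% in cultured CD4+ and 2.75% and 4.5% in activated against naive cells. Klf2, which keeps naive T cells circulating, was at 13.24 and 12.61 in naive samples and at 7.41 to 9.57 in NKT-like cultures, 22.5-fold lower (q = 7.7e-05). Bach2, a repressor of effector genes, fell 6.19-fold (q = 0.00056) and Lef1, a Wnt pathway factor, 4.71-fold (q = 6.4e-06). In cultured CD4+ against naive cells 6 were lower and 0 higher, led by Klf2 (28.6-fold), Foxp1 (3.46-fold) and Lef1 (3.42-fold). In activated against naive cells 4 were lower and 0 higher, led by Klf2 (94.0-fold), Lef1 (4.08-fold) and Ets1 (3.69-fold).

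Between the expanded lineages Bach2 was 5.38-fold lower (q = 0.0023) and Foxp1 2.98-fold higher in NKT-like cells (q = 0.0076). Of all genes 1.83% were lower and 1.24% higher there. Against activated cells the shares were 0.967% and 3.36% in NKT-like and 0.324% and 1.52% in cultured CD4+ cells. Bach2 was at 6.53 to 8.13 in NKT-like cultures and at 9.92 to 10.10 in cultured CD4+, 9.89 to 10.59 in naive and 10.10 to 10.76 in activated samples, so the NKT-like cultures lay below all others. Against activated cells Bach2 (7.06-fold, q = 0.0016) and Tox (2.26-fold, q = 0.0075) were lower in NKT-like cells and 0 were higher. The Tox means (4.83 and 6.01) lay below the array means of 14 genes of other organs (6.35 to 6.66 in these groups). The size of that fold is uncertain. Cultured CD4+ against activated cells gave 1 higher, Myb (2.94-fold, q = 0.0058), and 0 lower.

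Of the other effector and lineage factors, also chosen with earlier results known, several were higher in the expanded lineages than in naive cells. Of 17 measured, 7 rose and 0 fell from naive to NKT-like cells, led by Bhlhe40 (20.4-fold, q = 2.7e-06), Irf8 (14.4-fold, q = 1.3e-05) and Zbtb32 (9.27-fold, q = 0.00027). In cultured CD4+ against naive cells 5 were higher and 1 lower. Irf4, which acts with Batf at cytokine genes, was 24.7-fold, Bhlhe40 19.9-fold and Gfi1 8.65-fold higher, and Ikzf2 (Helios) was 5.56-fold lower (q = 0.0068). In activated against naive cells 4 were higher and 0 lower, led by Irf8 (19.2-fold), Irf4 (18.2-fold) and Bhlhe40 (15.0-fold). Of all genes 11% were higher and 6.73% lower in NKT-like against naive cells. The shares were 11.8% and 5.61% in cultured CD4+ and 4.5% and 2.75% in activated against naive cells.

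Directly between the lineages 2 of the 17 were higher in NKT-like cells and 3 lower, where 1.24% and 1.83% of all genes were. Irf8 was at 11.14 to 12.30 in NKT-like cultures and at 8.21 to 9.12 in cultured CD4+ samples, 7.62-fold higher (q = 0.00016), and Zbtb32 was 5.09-fold higher (q = 0.0048). Irf4 was 5.28-fold (q = 0.00069), Batf 3.22-fold (q = 0.0029) and Gfi1 2.45-fold lower (q = 0.0081). Against activated cells, NKT-like cells had 2 higher, Hopx (3.01-fold) and Zbtb7a (2.45-fold), and 1 lower, Irf4 (3.89-fold). In cultured CD4+ against activated cells Batf was higher (4.58-fold) and Irf8 lower (10.1-fold). Of all genes 3.36% were higher and 0.967% lower in NKT-like against activated cells. The shares were 1.52% and 0.324% in cultured CD4+ against activated cells.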

How the data were processed

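The authors normalized the arrays with RMA, which comprises background correction, quantile normalization and probe set summary, and deposited log2 values (an RMA version, and whether all 12 arrays were normalized together, are not given in the sources used here). Array medians were 6.23 to 6.42. The 64 Affymetrix controls among 45101 probe sets were excluded. Gene names came from the platform annotation, with symbols updated through RefSeq (GRCm38.p6). limma 3.58.1 in R 4.3.3 fitted 4 group means to the 12 arrays, with 8 residual and 3.03 prior degrees of freedom, and 6 contrasts. Storey q-values were computed per comparison over all 45037 probe sets, with a threshold of 0.01 at any fold. Folds are 2 to the power of the log2 difference, and intervals are 95% intervals of the fit. Array means of 14 genes of other organs were 6.35 to 6.77, and where a group read near or below these, the size of its folds is uncertain. Single genes of this list read 3.79 to 10.23, Mbp being the highest, so these means are only a rough guide to background. The model was tested on simulated data. The factors, gene lists and marker lists were chosen with earlier results of these data known, and no set test was run. All 10 factors were named, and from each list up to 3 genes per comparison with the largest passing difference and any that went against the rest. The study describes the CD8+ and CD4+ cultures as independent. Nothing in the sources used here says so of the naive and activated samples, 2 each, so p-values measure only the spread between these samples, and the number of arrays limits precision. Among same-group pairs, cultured CD4+ replicates 2 and 3 were the most alike (Pearson r 0.9949 over probe sets). Replicate 1 of that group correlated with them at 0.9808 and 0.9784. Alternatives were pairwise fits, q up to 0.05, Benjamini-Hochberg adjustment, array weights, a robust trended prior, a low-value filter, 3 further scalings, other probe set choices, a replicate block, and leaving out each array.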

Additional observations from a re-analysis of the deposited data

Results flagged for a closer look

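Among the 24 probe sets of the fate factors, 1 had a value far from the rest of the 5 NKT-like cultures: Zbtb16 probe set 1419874_x_at read 4.246 in replicate 3, with the next culture at 3.74. The gap was 0.713 of the range of the 5, just over the critical value of 0.71. Chance gives about 1 such case in 20 probe sets. The representative probe set of Zbtb16 read 6.54 to 6.95 on all arrays.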

How the results depend on the processing

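Under the 24 alternatives tried, 0 of the differences reported (those past the threshold or of at least 0.5 on the log2 scale) reversed in sign. Over all refits of these differences, a call was lost 62 times, gained 14 times and unchanged 908 times. The number of factors past the threshold kept within 1.5 times of the reported one in 136 of 144 recounts. In activated against naive cells it rose from 0 to 1 (Nfil3) at a q threshold of 0.05. With array weights it fell from 5 to 1 in NKT-like against activated cells and from 6 to 2 in cultured CD4+ against activated cells, where Id2 alone and Id2 with Eomes still passed. Fitting each pair of groups alone lost Maf in NKT-like against naive cells (q = 0.017), Gata3 in NKT-like against activated cells (q = 0.033) and Id3 in cultured CD4+ against activated cells (q = 0.038). Leaving out each array gave 5 to 6 factors for NKT-like and 6 to 8 for cultured CD4+ against naive cells, 0 for activated against naive cells, 1 to 2 for NKT-like against cultured CD4+ cells (1 without any 1 cultured CD4+ array), 3 to 6 for NKT-like against activated cells (3 without activated replicate 2) and 4 to 6 for cultured CD4+ against activated cells. A group left with 1 array was assumed to vary like the other groups. The deviations of 13 same-numbered pairs correlated from -0.501 to 0.28. In a group of 2 arrays the deviations mirror each other, so this cannot decide whether replicate numbers pair the samples. With the replicate number as a block the count for NKT-like against activated cells fell from 5 to 2 (Prdm1, q = 0.014, Id3, q = 0.02, and Gata3, q = 0.062, no longer passed), Maf in NKT-like against naive cells (q = 0.017) and Id3 in cultured CD4+ against activated cells (q = 0.03) no longer passed, and Tbx21 passed as lower in NKT-like than cultured CD4+ cells (log2 difference -1.25, q = 0.0082). The cause of these changes was not tested. Median centring moved the median difference of all genes by 0.116 and 0.126 on the log2 scale in NKT-like and cultured CD4+ against naive cells. A difference that missed the threshold may still be real, since groups of 2 to 5 arrays limit what can be seen.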
